A study of Saccharomyces cerevisiae with 18 samples.

Results

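The DNA replication machinery of budding yeast was followed here through 40 genes, listed by symbol, of the 5650 genes with a named probe on the arrays. They encode the 3 replicative polymerases with primase, the sliding clamp and its loader, the single-strand binding protein RPA, ribonucleotide reductase and thymidylate synthase, a flap nuclease and a ligase, the MCM helicase with CDC45 and CDC6, and the origin recognition complex. Each of the 40 genes was measured by 1 probe. The study set 2 mutants of Saccharomyces cerevisiae, SM1 and CM1, which its title calls ethanol tolerant, against their parent W303-1A, a common laboratory strain. On each array the RNA of 1 culture was hybridised against pooled RNA of 3 unstressed W303-1A cultures. The 6 groups were SM1 with 6.5 % v/v ethanol, SM1 with 0 %, CM1 with 6.5 %, CM1 with 0 %, W303-1A with 6.5 % and W303-1A with 0 %, each with 3 separate cultures and 1 array per culture. Every culture was started from unstressed, late exponential cells of its strain, and AlexaFluor dyes were coupled to the cDNA in an indirect labelling step. Each mutant is represented by 1 strain. The mutations that SM1 and CM1 carry and the time of sampling are not given in the sources used here.

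Replication in yeast starts at origins bound by the origin recognition complex, where CDC6 helps to load the MCM helicase. Primase and polymerase alpha lay down primers, and polymerases epsilon and delta then extend them on a clamp, PCNA, that replication factor C places on the DNA. Many genes of the synthesis enzymes are transcribed as a burst in late G1 under the factor MBF, whereas the MCM genes and CDC6 peak earlier, around the exit from mitosis. RNR2, RNR3 and RNR4 are known instead for their rise after DNA damage.

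Values are log2 ratios of a culture over the pool. Replicate 1 of each group was hybridised with the dyes swapped and its sign was turned, so it comes first in each trio of values below. Whether the deposited ratio is red over green on every array is not stated. The labels name the dyes of each array, and HSP12, a heat shock gene, differed between ethanol and no ethanol by -6.47, -6.04 and -5.27 on the swapped arrays of W303-1A, SM1 and CM1 as deposited, against 8.42, 4.48 and 3.53 on the normal ones. Across all genes the ethanol differences of swapped and normal arrays correlated at -0.506 in W303-1A, -0.33 in SM1 and -0.131 in CM1, so culture over pool after the turn is the likely reading, least firmly in CM1. If the swapped arrays were not turned, none of the 17 calls of replication genes below would stand. Over the replication genes alone these correlations were -0.358, -0.144 and 0.018. Swapped and normal arrays also differed by gene: the dye term of the fit had a median size of 0.285 over the 40 genes and reached 0.924, against a median of 0.253 over all genes. Arrays of 1 orientation correlated with each other at 0.207 or more among normal arrays and 0.235 or more among swapped ones, and the residual SD of an array lay between 0.241 and 0.613. No further check of array quality was made here. In W303-1A without ethanol, the same strain and condition as the pool, single values of the 40 genes still ran from -2.17 to 2.19.

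The clearest difference lay between SM1 and its parent when both grew with ethanol. There 8 of 40 replication genes were higher in SM1 and 0 were lower (limma, Benjamini-Hochberg adjusted p under 0.05 over all genes). Of all genes, 17.5 % were called in this comparison, 10.3 % as higher. The 20 % of the replication genes stands above the share of all genes that were higher, and near the share called in either direction. The median difference of the 40 genes was 0.35, against -0.01 over all genes. In W303-1A, ethanol lowered 4 of the 40 genes and raised 0, where 23.9 % of all genes were called and 13.6 % as lower. This count of 4 (10 %) lies near the share of all genes called as lower and below the share called in either direction. The median was -0.16 over the 40 genes and 0.03 over all genes. In CM1 against W303-1A with ethanol 2 of 40 genes were higher (5 %), where 12.2 % of all genes were called and 6.96 % as higher. In the remaining comparisons between 2 groups no replication gene was called. The 3 comparisons just named share the 3 arrays of W303-1A with ethanol, so a low value there enters all of them. The response differences given further below contain these 3 arrays too, so all 17 calls of replication genes rest in part on them.

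**Figure D1:**
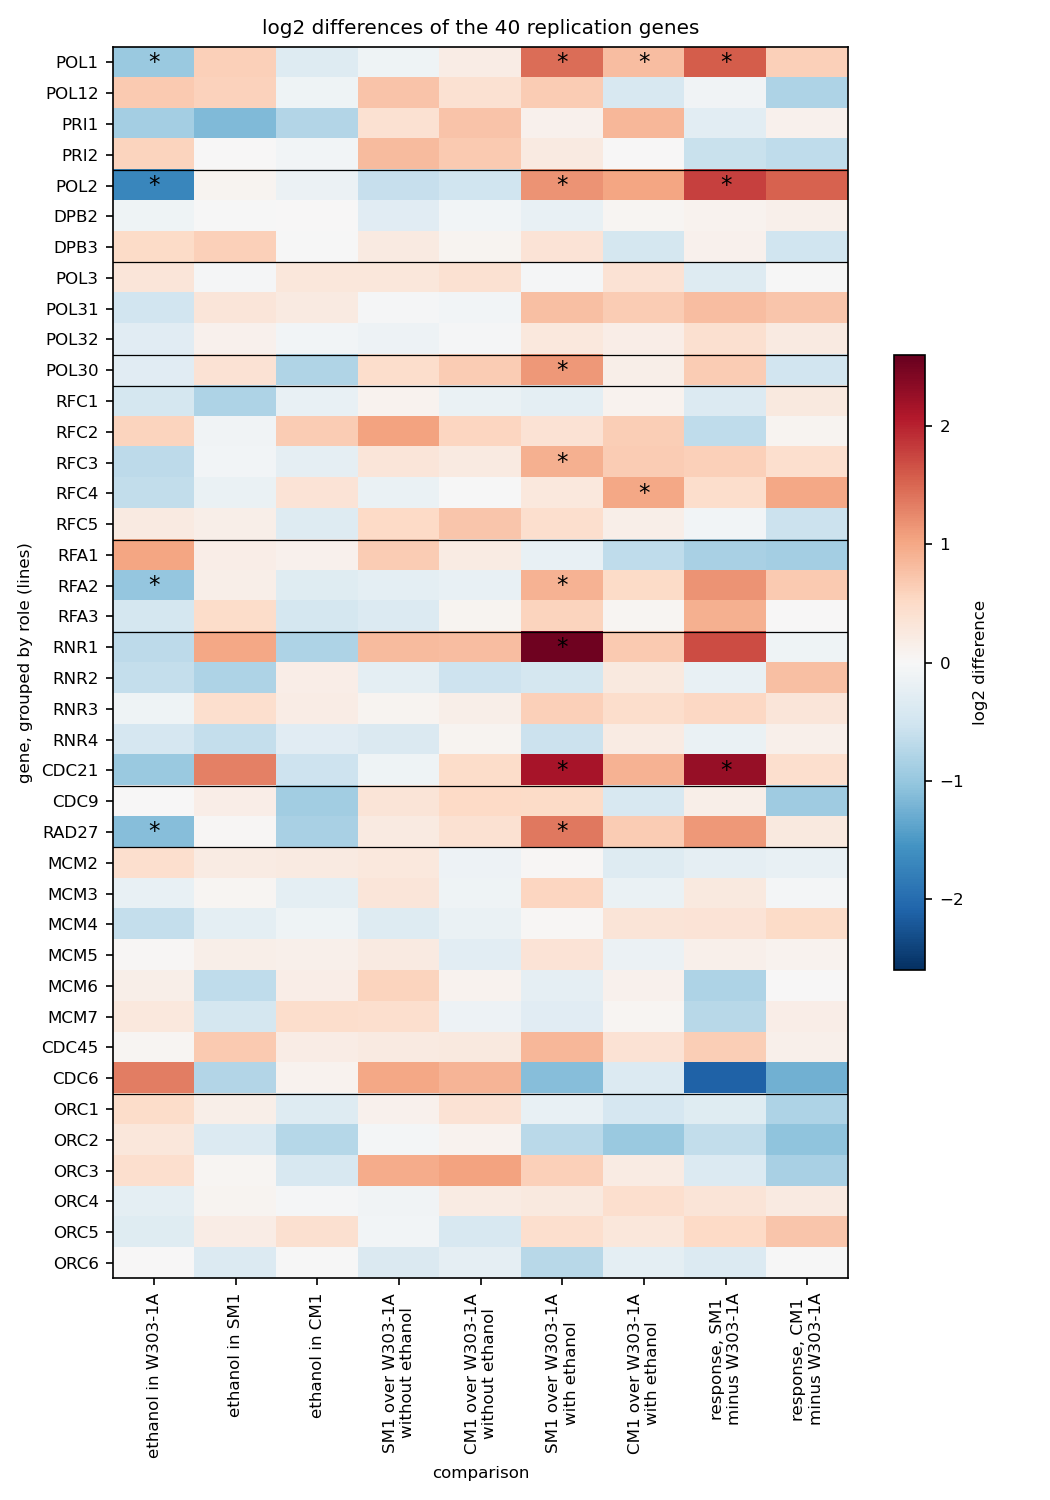
Heat map of the log2 difference of each of the 40 replication genes (rows, grouped by role) in the 9 comparisons (columns). Red is higher and blue lower, and a star marks an adjusted p under 0.05. The 17 stars lie in 4 columns and on 9 genes, none of them in the MCM and origin rows.

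Over the 9 comparisons 17 calls fell on 9 genes, POL1, POL2, POL30, RFC3, RFC4, RFA2, RNR1, CDC21 and RAD27, and 31 genes were never called. All 9 belong to the 26 genes of DNA synthesis and nucleotide supply, and 0 of the 14 helicase and origin genes was called. This split was made after the values were seen, and the difference between the 2 classes was not tested. In SM1 over W303-1A with ethanol, 30.8 % of the 26 genes and 0 of the 14 were called, against 17.5 % of all genes. With ethanol in W303-1A these were 15.4 % and 0, against 23.9 % of all genes. A count of 0 among only 14 genes is weak evidence of a difference. The share of all genes called in at least 1 comparison was not counted. Since RNA came from whole cultures, fewer cells in S phase and less transcript per cell cannot be told apart in any of these values.

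Nucleotide supply gave the widest gaps between SM1 and W303-1A in ethanol. RNR1 (YER070W) encodes the large subunit of ribonucleotide reductase, which makes deoxynucleotides. It stood at 1.61, 1.29 and 0.64 in SM1 with ethanol, against 0.55, -2.21 and -2.35 in W303-1A with ethanol. The groups did not overlap, although the swapped array of W303-1A lay close to the lowest SM1 value and far above the other 2 of its group. The difference was 2.52 ± 0.47 (standard error of the fit, 3 arrays per group, adjusted p = 0.00215), a 5.72-fold higher level in SM1, and leaving out any 1 of these 6 arrays gave 2.22 to 3.12 with the call kept. Without ethanol RNR1 read 0.51, 0.10 and -0.11 in SM1 and 0.20, -1.70 and -0.45 in W303-1A, a difference of 0.82 ± 0.47 that did not pass (adjusted p = 0.532). In CM1 it read 0.51, -1.87 and -0.58 with ethanol and 0.79, 0.04 and -0.38 without. Here the swapped array was the highest of its trio in all 6 groups, and the dye term of RNR1 was -0.66.

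CDC21 (YOR074C), the thymidylate synthase gene, showed a similar gap. Its values were 0.77, 1.92 and 1.75 in SM1 with ethanol, against -1.51, -0.09 and -0.39 in W303-1A with ethanol. All SM1 values lay above all W303-1A values. The difference was 2.15 ± 0.39, or 4.43-fold (adjusted p = 0.00174), and it stayed between 1.85 and 2.36 and past the threshold without any 1 array. CDC21 read 0.56, 0.09 and -0.10 in SM1 without ethanol and -0.31, 0.48 and 0.72 in W303-1A without ethanol, and these trios overlapped (-0.12 ± 0.39, adjusted p = 0.949). Ethanol gave 1.30 ± 0.39 in SM1 and -0.96 ± 0.39 in W303-1A, and neither passed alone (adjusted p = 0.0772 and 0.085). In CM1 the values were -0.18, -0.20 and 1.10 with ethanol and 0.90, 0.82 and 0.60 without.

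No gene of the other subunits of ribonucleotide reductase was called. RNR3 (YIL066C), a large-subunit isoform known for its induction by DNA damage, stood at -0.24, 0.32 and 0.99 in SM1 with ethanol, against -0.55, -0.17 and -0.06 in W303-1A with ethanol. The trios overlapped, and 0.62 ± 0.31 did not pass (adjusted p = 0.201). Without ethanol RNR3 read 0.28, -0.22 and -0.29 in SM1 and 0.12, 0.01 and -0.59 in W303-1A. In CM1 it read -0.02, 0.47 and 0.15 with ethanol and 0.19, -0.30 and 0.10 without, so all 18 arrays stayed within 1 unit of the pool. The small-subunit genes RNR2 and RNR4 were on the other side of 0: in SM1 over W303-1A with ethanol RNR2 gave -0.45 ± 0.22 (adjusted p = 0.18) and RNR4 -0.55 ± 0.23 (adjusted p = 0.127). With ethanol in SM1, RNR2 stood 0.81 below its level without (-0.81 ± 0.22, adjusted p = 0.0527), with no overlap but without passing.

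Among the polymerases, 1 catalytic subunit each of alpha and epsilon was called and 0 of the 3 delta genes. POL1 (YNL102W), the catalytic subunit of polymerase alpha, stood at 0.34, 0.96 and 0.95 in SM1 with ethanol, against -0.80, -0.96 and -0.39 in W303-1A with ethanol. The lowest SM1 value lay well above the highest W303-1A value. The difference was 1.46 ± 0.22, or 2.76-fold, with the smallest adjusted p of any replication gene in this comparison (0.00056), and 1.26 to 1.58 without any 1 array. In W303-1A without ethanol POL1 read -0.25, 0.60 and 0.41, also without overlap with the ethanol trio, and ethanol lowered it by 0.96 (-0.96 ± 0.22, adjusted p = 0.00569). That fall kept its call without any 1 array, and lost it with quantile normalization (adjusted p = 0.0792) and in a fit of only these 2 groups (adjusted p = 0.0516). In SM1 without ethanol it read -0.01, -0.04 and 0.44, and ethanol gave 0.62 ± 0.22 there, which did not pass.

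POL2 (YNL262W), the catalytic subunit of polymerase epsilon, had the largest change of any replication gene with ethanol in the parent. It read -1.55, -0.17 and 0.00 in W303-1A with ethanol, against -0.25, 2.19 and 1.46 without. The groups overlapped through the swapped array without ethanol, while within each dye orientation the ethanol values were lower. Ethanol lowered POL2 by 1.70 (-1.70 ± 0.33, adjusted p = 0.00174), a 3.26-fold fall that kept its call without any 1 array and was no longer called without the dye term (adjusted p = 0.111). In SM1 with ethanol it read 0.02, 0.97 and 0.81, above all 3 values of W303-1A with ethanol, by a narrow margin for the swapped array (1.17 ± 0.33, adjusted p = 0.024). That call was lost without the dye term (adjusted p = 0.342) and without any 1 ethanol array of W303-1A (adjusted p = 0.0655, 0.0713 and 0.051) or the swapped one of SM1 (adjusted p = 0.098). SM1 without ethanol read 0.19, 0.61 and 0.80. CM1 read -1.01, 1.31 and 1.05 with ethanol and -0.05, 1.05 and 0.85 without. CM1 over W303-1A with ethanol gave 1.02 ± 0.33, which did not pass (adjusted p = 0.0555).

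The other polymerase and primase genes of the list were not called. In SM1 over W303-1A with ethanol, POL12, PRI1 and PRI2 of the polymerase alpha and primase complex gave 0.66, 0.12 and 0.24, and DPB2 and DPB3 of polymerase epsilon gave -0.20 and 0.35. For polymerase delta, POL3, POL31 and POL32 gave -0.04, 0.78 and 0.28. POL31 came nearest to the threshold (0.78 ± 0.27, adjusted p = 0.0559). POL12 showed how far a single array could stand apart: the swapped array of SM1 with ethanol read 2.64, the highest value of the 40 genes on any array, and the other 2 read -0.98 and 0.01.

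POL30 (YBR088C) encodes PCNA, the clamp. It stood at 0.88, 0.31 and 0.18 in SM1 with ethanol, against 0.29, -1.32 and -0.94 in W303-1A with ethanol. The trios overlapped through the swapped W303-1A array, and SM1 was higher within each dye orientation. The difference was 1.12 ± 0.26, or 2.17-fold (adjusted p = 0.00847), and it held without any 1 array (0.86 to 1.47) but not without the dye term (adjusted p = 0.0589) or in a fit of only these groups (adjusted p = 0.0517). Without ethanol POL30 read 0.22, 0.15 and -0.14 in SM1 and -0.21, -0.61 and -0.30 in W303-1A. In CM1 it read -0.20, -0.49 and -0.82 with ethanol and 0.44, 0.17 and 0.22 without, 2 trios that did not overlap, yet -0.78 ± 0.26 did not pass (adjusted p = 0.0913).

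Replication factor C loads the clamp, and 2 of its 5 genes were called, each in 1 comparison. RFC3 (YNL290W) read 0.10, 0.55 and 1.01 in SM1 with ethanol, against -1.43, 0.31 and 0.00 in W303-1A with ethanol. The trios overlapped, and the difference of 0.93 ± 0.26 (adjusted p = 0.0255) lost its call without ethanol replicate 1 or 3 of either strain (adjusted p = 0.119 and 0.0535 for W303-1A, 0.0781 and 0.0845 for SM1). On normal arrays only it was 0.62 (adjusted p = 0.18), and without the dye term, with array weights, with the probe trend removed and in a fit of only these groups the adjusted p was 0.248, 0.0666, 0.0538 and 0.101. It read 0.25, 0.51 and 1.10 in SM1 without ethanol, -0.42, 0.88 and 0.44 in CM1 with ethanol, 0.14, 0.77 and 0.72 in CM1 without and -0.05, 0.43 and 0.54 in W303-1A without. Among these 6 trios, W303-1A with ethanol was the one with the lowest mean, -0.37.

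RFC4 (YOL094C) read 0.02, 1.30 and 1.49 in CM1 with ethanol, against -0.93, 0.41 and 0.34 in W303-1A with ethanol. The trios overlapped only through the swapped CM1 array. The difference was 1.00 ± 0.26, or 2.00-fold (adjusted p = 0.023), and the call was lost without ethanol replicate 1 or 3 of W303-1A or 2 or 3 of CM1 (adjusted p = 0.0789, 0.0575, 0.054 and 0.0677). It was also lost with quantile normalization (0.72, adjusted p = 0.158), without the dye term (adjusted p = 0.344), with array weights (adjusted p = 0.0551) and in a fit of only these groups (adjusted p = 0.108). RFC4 read 0.18, 1.07 and 0.48 in CM1 without ethanol, -0.75, 0.58 and 0.83 in SM1 with ethanol, 0.11, 0.41 and 0.69 in SM1 without and -0.20, 0.74 and 1.21 in W303-1A without. RFC1, RFC2 and RFC5 were not called in any comparison.

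RPA coats single-stranded DNA. Of its 3 genes, RFA2 (YNL312W) was called. It read -0.17, 1.03 and 1.09 in SM1 with ethanol and -1.68, 0.51 and 0.41 in W303-1A with ethanol, and -0.08, 0.62 and 0.92 in SM1 and -0.18, 1.54 and 0.89 in W303-1A without ethanol. In all 4 trios the swapped array was far the lowest, with a dye term of 0.73, and the trios overlapped. Ethanol lowered RFA2 in W303-1A 2.01-fold (-1.0 ± 0.29, adjusted p = 0.019), a call lost without replicate 1 or 2 without ethanol or replicate 1 with ethanol (adjusted p = 0.0526, 0.0835 and 0.0957). SM1 over W303-1A with ethanol gave 0.90 ± 0.29 (adjusted p = 0.0407), a call lost when any 1 of the 6 arrays was left out (adjusted p = 0.0517 to 0.174). On normal arrays only these differences were -0.75 (adjusted p = 0.0882) and 0.60 (adjusted p = 0.199), and both calls also ended without the dye term, with array weights, with the probe trend removed and in fits of only the groups compared. In CM1 it read -1.09, 1.12 and 0.70 with ethanol and -0.21, 1.14 and 0.74 without. RFA1, the largest RPA subunit, gave 1.02 ± 0.37 with ethanol in W303-1A (adjusted p = 0.0588), the sign opposite to RFA2.

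RAD27 (YKL113C), the flap nuclease that trims Okazaki fragments, had close-lying values in both groups compared here. It read 0.38, 0.54 and 0.34 in SM1 with ethanol, against -0.97, -0.64 and -1.26 in W303-1A with ethanol, with no overlap. SM1 was 2.6-fold higher (1.38 ± 0.26, adjusted p = 0.00207, and 1.19 to 1.51 without any 1 array). W303-1A without ethanol read 0.21, -0.06 and 0.27, and ethanol lowered it by 1.10 (-1.10 ± 0.26, adjusted p = 0.0058), again without overlap and without a call lost when any 1 array was left out. RAD27 read 0.44, 0.51 and 0.20 in SM1 without ethanol, so SM1 stayed in 1 narrow band at both ethanol levels (0.04 ± 0.26, 95 % interval -0.51 to 0.58). In CM1 it read -0.97, -0.01 and 0.06 with ethanol and 0.49, 0.46 and 0.68 without (-0.85 ± 0.26, adjusted p = 0.0656). The dye term of RAD27 was 0.08, small beside those of POL2, RFA2 and RNR1. CDC9, the DNA ligase gene, gave 0.49 in SM1 over W303-1A with ethanol and was not called.

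**Figure D2:**
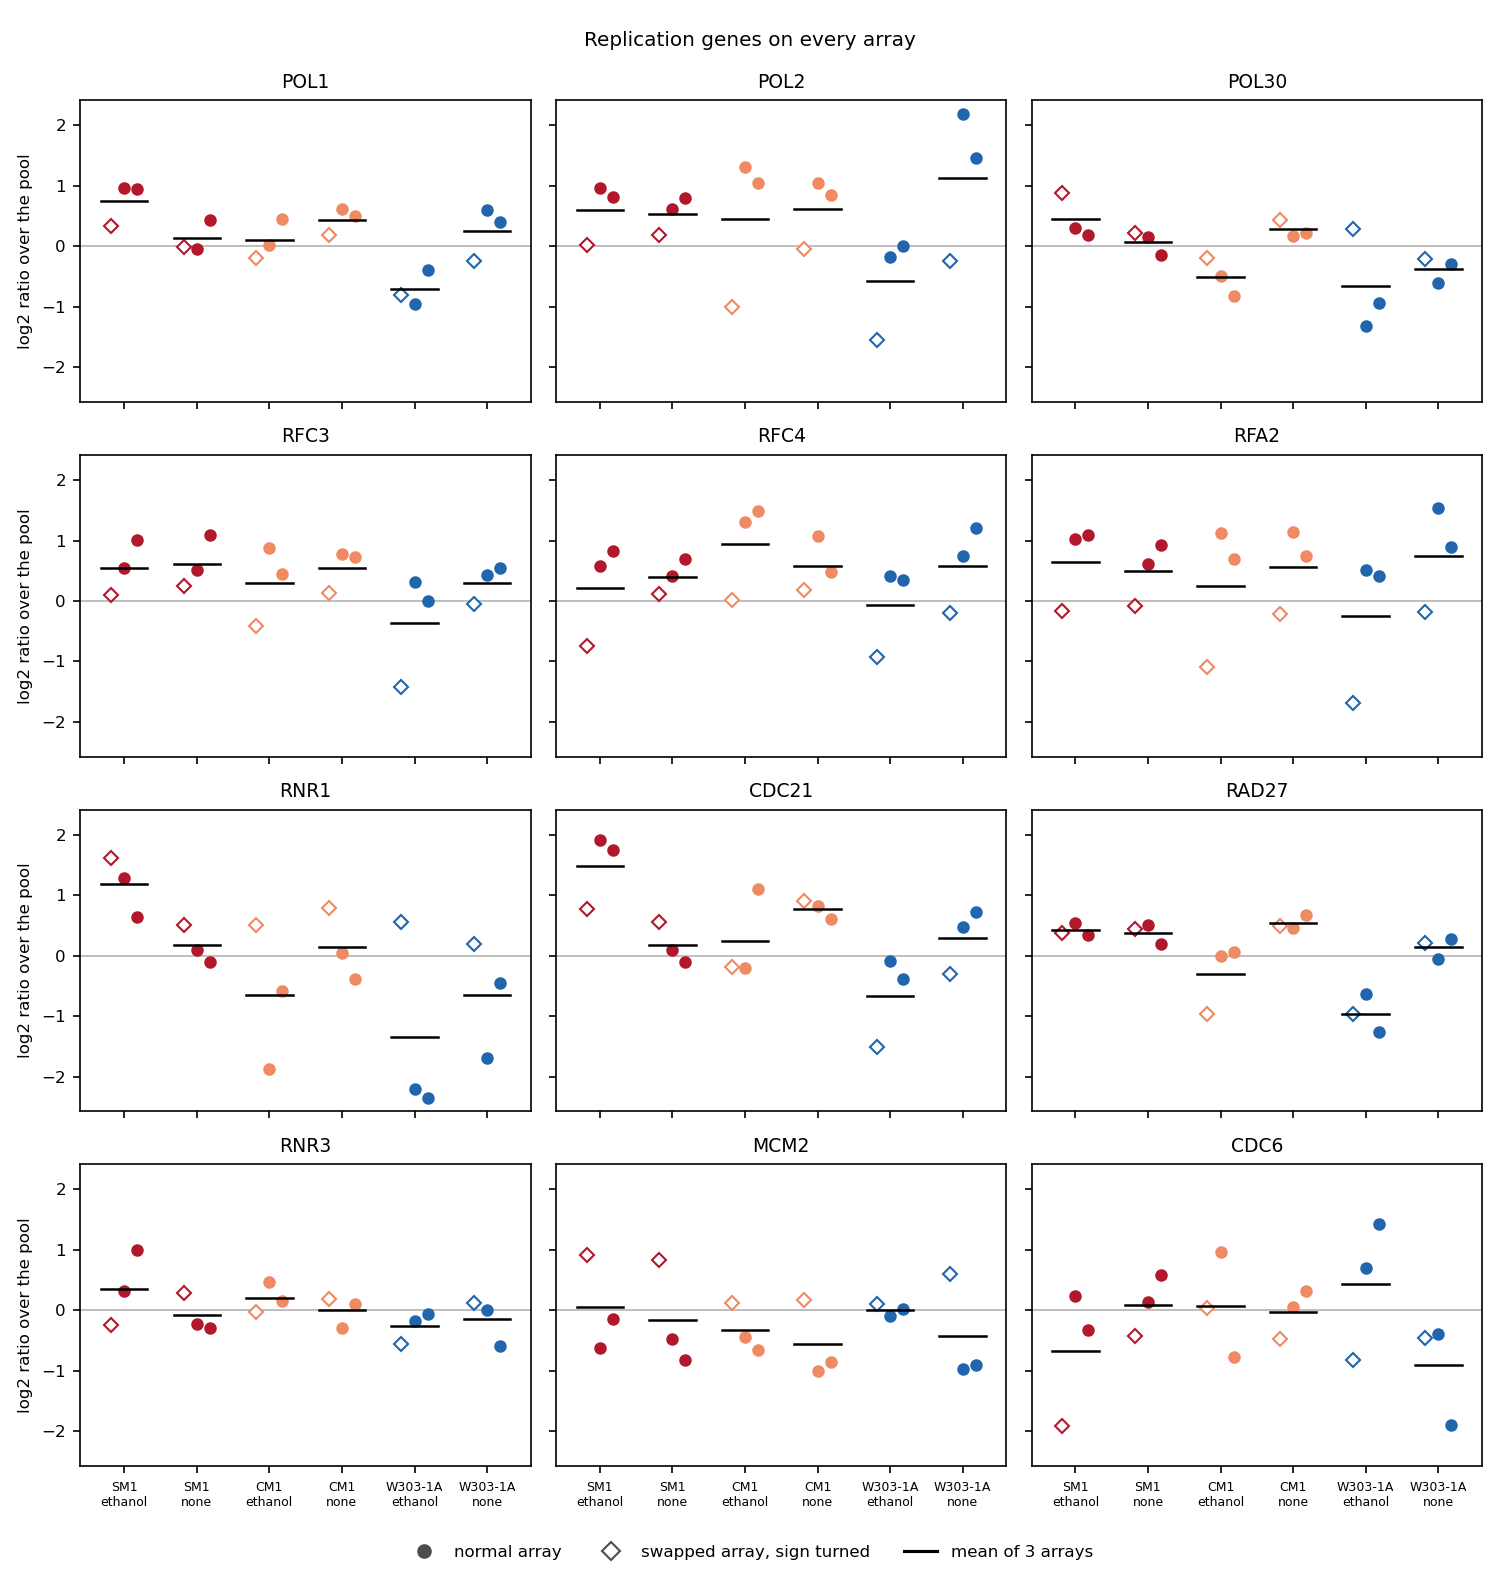
Log2 ratio over the pool on every array for the 9 called genes and for RNR3, MCM2 and CDC6 (panels), with the 6 groups along the x axis. Filled circles are normal arrays, open diamonds swapped arrays after the sign turn, and bars the mean of 3 arrays. For POL1, CDC21 and RAD27 all 3 values of SM1 with ethanol lie above all 3 of W303-1A with ethanol, as do those of RNR1 and POL2 by a narrow margin, while MCM2 and RNR3 show no such gap and CDC6 spreads from -1.92 to 1.42.

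The helicase and origin genes went both ways, and none passed. For the 8 genes MCM2 to MCM7, CDC45 and CDC6 the median difference of SM1 over W303-1A with ethanol was 0.04, with values from -1.10 (CDC6) to 0.87 (CDC45), and for the 6 ORC genes it was 0.03. MCM2 (YBL023C), an MCM subunit, read 0.92, -0.62 and -0.15 in SM1 with ethanol, against 0.11, -0.10 and 0.02 in W303-1A with ethanol. The SM1 trio spanned the W303-1A trio on both sides, and 0.04 ± 0.28 did not pass (adjusted p = 0.944, 95 % interval -0.55 to 0.63). MCM2 read 0.84, -0.47 and -0.83 in SM1 without ethanol, 0.12, -0.44 and -0.66 in CM1 with ethanol, 0.17, -1.0 and -0.86 in CM1 without and 0.60, -0.97 and -0.90 in W303-1A without. Its swapped array was the highest in every trio, with a dye term of -0.52.

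CDC45, which travels with the helicase, gave 0.87 ± 0.42 in SM1 over W303-1A with ethanol (adjusted p = 0.185). CDC6, the helicase loader, went the other way with a wide spread and is shown for its size, chosen after its values were seen. It read -1.92, 0.24 and -0.33 in SM1 with ethanol and -0.83, 0.70 and 1.42 in W303-1A with ethanol (-1.10 ± 0.57, adjusted p = 0.207), and without ethanol -0.43, 0.13 and 0.58 in SM1 and -0.45, -0.40 and -1.89 in W303-1A. These trios overlapped, and neither ethanol in W303-1A (1.34 ± 0.57, adjusted p = 0.101) nor ethanol in SM1 (-0.76 ± 0.57, adjusted p = 0.544) passed. ORC2 gave -0.71 ± 0.48 and ORC3 0.61 ± 0.44 in SM1 over W303-1A with ethanol, and the ORC genes together ran from -0.73 to 0.61.

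The test of whether the ethanol response itself differed between SM1 and W303-1A called 3 of the 40 genes, all of them higher (7.5 %), where 6.37 % of all genes were called and 4.55 % as higher. They were POL1 (1.58 ± 0.32, adjusted p = 0.0103), POL2 (1.77 ± 0.47, adjusted p = 0.0362) and CDC21 (2.26 ± 0.55, adjusted p = 0.0243). For POL1 and CDC21 the response was below 0 in W303-1A and above 0 in SM1, and for POL2 it was below 0 in W303-1A and near 0 in SM1 (0.07 ± 0.33). Leaving out any 1 of the 12 arrays left POL1 called, whereas POL2 lost its call in 9 of 12 cases (adjusted p up to 0.107) and CDC21 in 7 of 12 (up to 0.0743). All 3 lost it with quantile normalization (adjusted p = 0.0542, 0.0946 and 0.0779) and without the dye term (adjusted p = 0.0654, 0.422 and 0.0857). POL1 and POL2 also lost it once a trend over probe numbers was removed (adjusted p = 0.0546 and 0.0747). RNR1 gave 1.70 ± 0.67 (adjusted p = 0.144), RAD27 1.13 and CDC6 -2.11 ± 0.80 (adjusted p = 0.132), none of which passed. So the higher RNR1 and RAD27 of SM1 in ethanol were not shown to differ from the strain difference without ethanol.

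**Figure D3:**
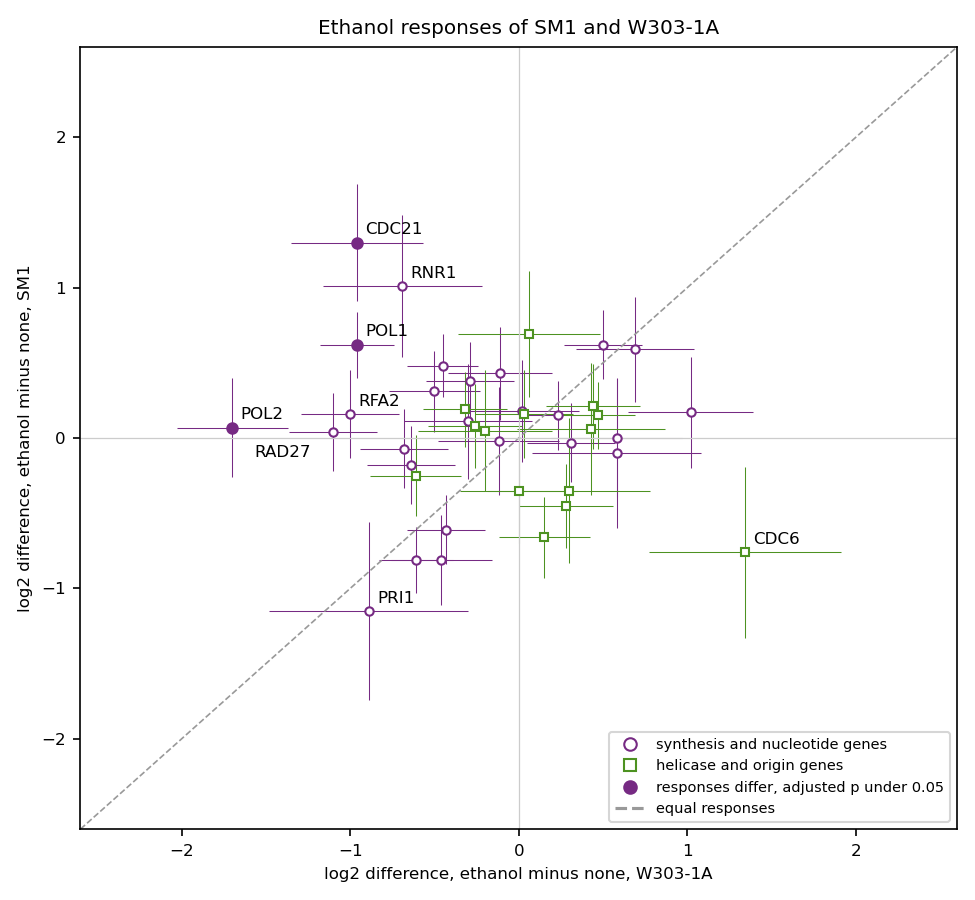
Ethanol response (log2 difference, ethanol minus none) of the 40 genes in SM1 (y axis) against W303-1A (x axis), with bars of 1 standard error. Circles are synthesis and nucleotide genes, squares helicase and origin genes, filled symbols the 3 genes whose responses differ by the test, and the dashed line marks equal responses. CDC21 and POL1 lie above 0 in SM1 and below 0 in W303-1A, and CDC6 lies on the opposite side.

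With ethanol in SM1, 0 of the 40 genes was called by limma, where 4.09 % of all genes were, and 9 had an unadjusted p under 0.05. The median was 0.07, against 0.00 over all genes. Ethanol in CM1 also gave 0 of 40 (5.61 % of all genes), with 4 at an unadjusted p under 0.05 and a median of -0.10 against -0.01. Without ethanol, SM1 against W303-1A gave 0 of 40 (1.73 % of all genes, 4 at an unadjusted p under 0.05), with a median of 0.23 against 0.00. CM1 against W303-1A without ethanol gave 0 of 40 (1.22 % of all genes, 4 at an unadjusted p under 0.05), with a median of 0.12 against 0.00. With so few genes called anywhere without ethanol, the count of 0 is near the background. The ethanol response of CM1 minus that of W303-1A called 0 of 40 (4.65 % of all genes, 4 at an unadjusted p under 0.05), with POL2 nearest at 1.54 ± 0.47 (adjusted p = 0.0758).

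In CM1 with ethanol POL1 was 1.75-fold higher than in W303-1A with ethanol. It read -0.20, 0.03 and 0.46 in CM1 with ethanol, against -0.80, -0.96 and -0.39 in W303-1A with ethanol, without overlap (0.81 ± 0.22, adjusted p = 0.029). The call was lost without ethanol replicate 2 of W303-1A (0.61, adjusted p = 0.121) or 3 of CM1 (0.70, adjusted p = 0.0849). It was also lost on normal arrays only (0.91, adjusted p = 0.0613), with quantile normalization (0.60, adjusted p = 0.21), without the dye term (adjusted p = 0.147), with the probe trend removed (0.56, adjusted p = 0.17) and in a fit of only these groups (adjusted p = 0.185). CM1 without ethanol read 0.19, 0.62 and 0.51. RNR1 gave 0.69 ± 0.47 (adjusted p = 0.366), CDC21 0.90 ± 0.39 (adjusted p = 0.139) and RAD27 0.65 ± 0.26 (adjusted p = 0.109) in this comparison, with none passing. SM1 and CM1 were not set against each other, so no difference between the mutants is stated.

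A further 48 genes of the pathway were measured. The 23 initiation and replisome partners had 5 genes higher and 1 lower in SM1 over W303-1A with ethanol (26.1 %), against 17.5 % of all genes called and 10.3 % higher, with a median of 0.34. CTF4, which links the helicase to polymerase alpha, was higher by 1.36 ± 0.35 (adjusted p = 0.0149), and ethanol lowered it in W303-1A (-1.50 ± 0.35, adjusted p = 0.0058). TAH11, the yeast Cdt1 that loads MCM, was higher by 1.40 ± 0.37, TOP1, topoisomerase I, was higher by 0.88 ± 0.25, and RNH201, an RNase H2 subunit, was lower (-1.57 ± 0.39, adjusted p = 0.0126). Leaving out 1 of the 6 arrays in turn lost the call 2 times for CTF4 in this comparison, 3 times for TAH11, 4 times for TOP1 and 3 times for RNH201. The TOP1 and TAH11 differences were 0.79 (adjusted p = 0.0835) and 0.67 (adjusted p = 0.218) on normal arrays only, and CTF4 gave 0.91 (adjusted p = 0.115). RNH201 was also lower with ethanol in SM1 (-1.47 ± 0.39, adjusted p = 0.0475), a call lost without 5 of 6 arrays in turn and with a replicate block (adjusted p = 0.0519). In W303-1A with ethanol MCM10 (-0.73 ± 0.24) was lower and DPB4, a polymerase epsilon subunit, was higher (0.63 ± 0.18), and both lost the call without 4 of 6 arrays in turn and under 6 of 9 other ways of processing. With the probe trend removed DPB4 gave 0.25 (adjusted p = 0.436).

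Of the 11 measured genes of dNTP control and checkpoint signalling, 0 were higher and 2 lower in SM1 over W303-1A with ethanol. This share of 18.2 % was near the 17.5 % of all genes called in either direction. Called as lower were 406 of all 5650 genes. Of the 11 differences, called or not, 9 were below 0 and 2 above, with a median of -0.42 against -0.01 over all genes. A shift of the list as a whole was not tested. SML1, the protein inhibitor of ribonucleotide reductase, was lower by 0.69 on the log2 scale (-0.69 ± 0.21, adjusted p = 0.0333), and RAD54, a recombination gene, was lower (-0.82 ± 0.25, adjusted p = 0.0365). Both calls were lost without 5 of 6 arrays in turn. Ethanol raised RAD54 (0.85 ± 0.25) and DUN1 (1.36 ± 0.37), the checkpoint kinase that acts on SML1, in W303-1A, calls lost without 4 and 3 of 6 arrays in turn. HUG1, a damage-induced inhibitor of the reductase, was lower in CM1 than in W303-1A with ethanol (-1.43 ± 0.33, adjusted p = 0.0121), and DUT1, the dUTPase, was lower with ethanol in CM1 (-1.66 ± 0.45, adjusted p = 0.0442). Those calls were lost without 2 and 5 of 6 arrays in turn, and that of DUT1 with a replicate block (adjusted p = 0.0573).

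The G1/S list held the largest called differences among these further genes. CLN2, a G1 cyclin, read 1.03, 1.48 and 2.37 in SM1 with ethanol, against -2.06, -0.63 and -1.11 in W303-1A with ethanol. The difference was 2.89 ± 0.31 (adjusted p = 4.62e-05). Without ethanol it was lower in SM1, with -0.25, -0.32 and 0.04 in SM1 against 0.56, 1.95 and 1.24 in W303-1A (-1.43 ± 0.31, adjusted p = 0.0288, a call lost without 5 of 6 arrays in turn). Ethanol raised it in SM1 (1.80 ± 0.31) and lowered it in W303-1A (-2.52 ± 0.31), and the responses differed by 4.32 ± 0.44 (adjusted p = 0.000169). The response of CM1 exceeded that of W303-1A by 1.94 ± 0.44 (adjusted p = 0.021). That call was lost without 2 of 12 arrays in turn and under 4 of 9 other ways of processing, normal arrays only among these (adjusted p = 0.0587). The cyclin genes PCL1 (1.67 ± 0.30) and CLN1 (1.34 ± 0.30) were also higher in SM1 with ethanol and kept their calls without any 1 array. WHI5, the repressor of G1/S transcription, was lower (-1.01 ± 0.32, adjusted p = 0.0421), a call lost without 4 of 6 arrays in turn, under 7 of 9 other ways of processing and with a replicate block among these (adjusted p = 0.0545). In all, 4 of 14 genes of this list were higher and 1 was lower in that comparison (35.7 %, against 17.5 % of all genes called and 10.3 % higher), with a median of 0.15. Of the 14 differences, called or not, 8 were above 0 and 6 below, so the list did not rise as a whole. SWI4, a subunit of the G1/S factor SBF, was lower in CM1 than in W303-1A with ethanol (-1.07 ± 0.30, adjusted p = 0.029). The SWI4 call was lost without 3 of 6 arrays in turn and under 6 of 9 other ways of processing.

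As a description of likeness, the genes of the whole table whose 6 group means followed POL1 most closely were BMT5, NSA2 and YPR063C, with Pearson r of 0.992, 0.990 and 0.988. For RNR1 they were EFM2, MAC1 and SKI3 (0.998, 0.994 and 0.979), and for MCM2 they were TKL2, RPH1 and DSE1 (0.963, 0.956 and 0.955). None of the 9 is another replication gene of the list. With 6 points and 5650 genes to search, high values are easily found, and the groups share the pool.

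**Figure D4:**
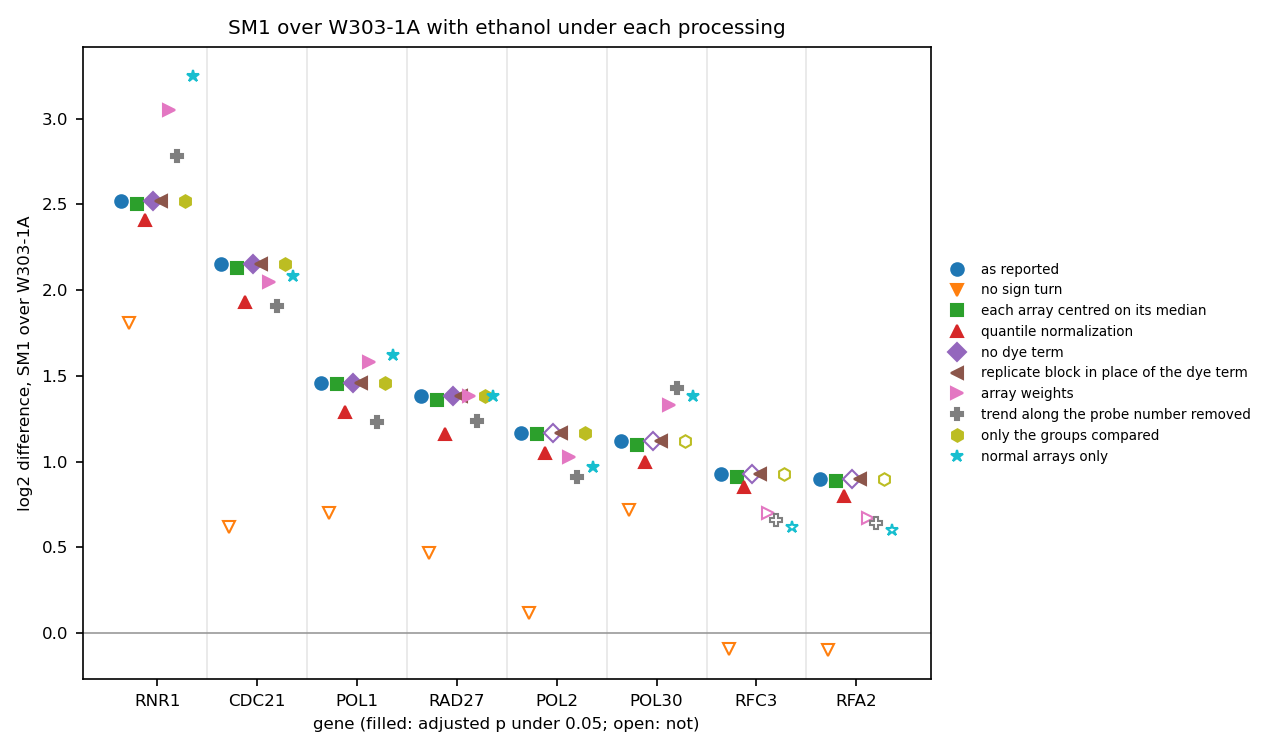
Log2 difference of SM1 over W303-1A with ethanol for the 8 called genes (x axis) under each way of processing (symbols). Filled symbols have an adjusted p under 0.05. RNR1 lies between 1.81 and 3.25, and without the sign turn all 8 genes are open, with RFC3 at -0.09 and RFA2 at -0.10 below 0.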

How the data were processed

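The authors deposited 1 normalized log ratio per probe and array, read here as log2. Per the labels these are normalized ratios; base, centring and direction are not stated, and another base would multiply every value by 1 factor. The column medians lay between -0.0041 and 0.0305. Intensities were not used here, so precision comes from the spread between arrays. Of 6368 probes, 5673 had 1 gene symbol, 0 had several and 695 had none. The 23 genes with 2 probes were averaged, which gave 5650 genes. The 40 members matched through entrez IDs to R64 gene entries. Values of the 6 swapped arrays were multiplied by -1. A linear model with 6 group means and a dye term was fitted to all 18 arrays in limma 3.58.1 (R 4.3.3), with Benjamini-Hochberg adjustment over all genes. It was tested on simulated data with 100 genes changed 2-fold and 100 changed 4-fold. Between 2 groups it recovered 26 to 38 % of the 2-fold and 78 to 85 % of the 4-fold changes. In the response differences it recovered 1 % (SM1) and 7 % (CM1) of the 2-fold changes, and 49 and 59 % of the 4-fold ones. A gene that was not called may therefore still have changed 2-fold. These rates are only a rough guide. The simulation left all other genes unchanged and gave each gene 1 noise SD on every array. In the data 1349 genes were called with ethanol in W303-1A, and the residual SD differed between arrays. The 9 comparisons were ethanol within each strain, each mutant against W303-1A at each ethanol level, and each mutant's response minus that of W303-1A.

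The members, lists and tests were chosen with earlier results of these data known. Named were the members called at least once with RNR1, RNR3, POL30 and MCM2, and at most 4 called genes per further list and comparison. CDC6 and the split into synthesis and helicase genes were chosen after the values were seen, as was the fit on the 12 normal arrays only. A planned promoter motif search was not run and no sequences are shown. Replicate numbers were checked for pairing: deviations of same-numbered arrays correlated at 0.201 or more, but replicate 1 is the swapped array in every group. After the dye term the lowest correlation was -0.447. The numbers were therefore run as a block in an alternative fit, beside other scalings, fits without the dye term or the sign turn, array weights, removal of a trend over probe numbers, fits of only the groups compared, and leaving out each array.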

Additional observations from a re-analysis of the deposited data

Results flagged for a closer look

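The ethanol response of SM1 differed from that of W303-1A by the test of the difference itself for POL1 (1.58), POL2 (1.77) and CDC21 (2.26), all log2 values with the SM1 response the higher. The POL2 response in W303-1A rests partly on 2 arrays without ethanol at 2.19 and 1.46, and the dye term of POL2 was 0.68, against 0.21 for POL1 and 0.26 for CDC21. Whether the dye moves with these differences was tested only through the alternatives given below. When each of the 12 arrays was left out in turn, POL1 kept its call every time, POL2 lost it 9 times and CDC21 7 times.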

How the results depend on the processing

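Of the 17 calls of replication genes, 17 were kept with each array centred and with a replicate block that replaced the dye term, 13 with array weights, 13 on normal arrays only, 11 with quantile normalization, 11 with the probe-number trend removed, 10 in fits of only the groups compared, 6 without the dye term and 0 without the sign turn, where SM1 over W303-1A with ethanol was reversed for RFC3 (-0.09) and RFA2 (-0.10). Centring moved the values little, since the column medians lay between -0.0041 and 0.0305, so it was a weak check. The replicate block changed no call of a replication gene: it gave 4, 8, 2 and 3 called, the counts of the report, and 0 elsewhere. That block includes the dye term, because replicate 1 is the swapped array in every group, so it was close to the reported fit and also a weak check. Of the further pathway genes it ended the calls of DUT1 with ethanol in CM1 (adjusted p = 0.0573), RNH201 with ethanol in SM1 (0.0519), and WHI5 (0.0545), TOF1 (0.0608) and TOS4 (0.0566) in SM1 over W303-1A with ethanol. TOF1, named with TOS4 after their values were seen, lost its call under 8 of 9 alternatives and TOS4 under 7. When 1 array at a time was left out, 9 of the 17 calls were never lost and 8 were lost at least once. The counts of replication genes called moved as follows. Only the larger moves under other ways of processing are named, so one not named may still have changed a count slightly. For CM1 over W303-1A with ethanol the highest count under these was 3. Ethanol in W303-1A (4) gave 0 without the sign turn, 2 without the dye term, 9 with array weights and 3 to 5 without 1 array. Ethanol in SM1 (0) gave 1 when centred, 2 with quantile normalization, 6 with weights, 1 with the trend removed, 1 on normal arrays only and 0 to 1 without 1 array. Ethanol in CM1 (0) gave 1 with quantile normalization, 1 with weights, 1 with the trend removed and 0 to 1 without 1 array. Without ethanol, SM1 and CM1 (0 each) gave 1 each with weights. SM1 over W303-1A with ethanol (8) gave 0 without the sign turn, 4 without the dye term, 5 in the fit of only these groups and 5 to 9 without 1 array. CM1 over W303-1A with ethanol (2) gave 0 without the sign turn, 0 with quantile normalization, 0 without the dye term, 1 with the trend removed, 0 in the fit of only these groups and 0 to 4 without 1 array. The response difference of SM1 (3) gave 0 without the sign turn, 0 with quantile normalization, 0 without the dye term, 9 with weights, 1 with the trend removed and 1 to 3 without 1 array. That of CM1 (0) gave 2 with weights, 1 on normal arrays only and 0 to 1 without 1 array. The cause of these moves was not tested. Over all genes, the count for ethanol in W303-1A (1349) ran from 0 without the sign turn to 1795, for ethanol in SM1 (231) from 1 to 799, for ethanol in CM1 (317) from 1 to 602, for SM1 and CM1 without ethanol (98 and 69) from 0 to 483 and from 0 to 360, for SM1 and CM1 over W303-1A with ethanol (989 and 692) from 8 to 1362 and from 2 to 1048, and for the response differences of SM1 and CM1 (360 and 263) from 0 to 870 and from 1 to 577. Of the further pathway genes, MCM10 (0.08) with ethanol in W303-1A and CTF4 (-0.15), TAH11 (-0.51) and TOF1 (-0.30) in SM1 over W303-1A with ethanol changed sign without the sign turn. PCL1 with ethanol in SM1, called at 1.23 ± 0.30 (adjusted p = 0.0327), also changed sign, to -0.29. That PCL1 call was lost without 4 of 6 arrays in turn.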
